A study of Mus musculus with 12 samples.

Results

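The OAS antiviral synthetase family was followed through 6 mouse genes: Oas1a, Oas1g, Oas2, Oas3, Oasl1 and Oasl2. They were taken by name from the deposited gene tables, which hold 16805 genes for neutrophils, 16954 for monocytes and 17476 in either. All 6 were present in both tables, and all 6 had enough counts to be tested in both.

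OAS proteins bind double-stranded RNA, a product of many viruses, and then join ATP into short chains called 2-5A. These chains are a signal of the antiviral response inside the cell, and other enzymes break them down. Most members are induced by type I interferon, and in spleen myeloid cells their transcripts are often read as a sign of interferon exposure.

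The data are 12 RNA-seq libraries of spleen cells from wild-type mice, made around a treatment that applies freezing and heating to a tumor in place, named cryo-thermal therapy (CTT). Cells captured with PE-coupled anti-Ly6G, called neutrophils in the labels, came from 2 groups of 3: tumor-bearing mice without therapy (control) and mice taken 12 h after it. Cells captured with PE-coupled anti-CCR2, called monocytes, came from mice 5 days after CTT that had received no depleting antibody (n = 3) or had also received anti-Ly6G (n = 3), so that both monocyte groups carry the therapy and no untreated monocytes were compared. The titles number the libraries of a group as biological replicates. The sources used here do not give the tumor model, mouse strain and age, antibody dose, or whether a library pools mice.

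The libraries held 30942849 to 35956571 counted reads. Transcripts of marker lists of all 9 cell types checked were present in each group. Ly6g, the antigen used to select neutrophils, read 9.52 to 25.5 CPM (a count relative to its library's total, scaled by TMM) in the 6 neutrophil libraries, close to the 11.7 to 16.1 CPM of CTT monocytes and under the 48.5 to 62.7 CPM of anti-Ly6G monocytes. Ly6g thus goes against the labels, being no higher in cells selected for it and higher where the depleting antibody was given; the libraries are called neutrophils and monocytes here only as labelled. Ccr2, the antigen used to select monocytes, read 190 to 264 CPM in CTT monocytes and 439 to 587 CPM in anti-Ly6G monocytes. It was thus also higher in every library where the depleting antibody was given. In the neutrophil libraries it read 76.8 to 194 CPM. In control neutrophil replicates 2 and 3 the summed B cell markers, 6578 and 7333 CPM, exceeded the neutrophil markers, 5855 and 4320 CPM. Control neutrophil replicate 1 stood apart with 14064 CPM of erythroid markers against 396 to 2366 CPM. Each result below is the sum over whatever cells a library held, in which more cells of a type and more RNA per cell cannot be told apart.

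The 6 genes lie in a pair of clusters on chromosome 5 (GRCm38.p6), and RefSeq lists all 6 as protein coding. Oas2 (Entrez 246728, chr5:120730333-120749886), Oas3 (246727, chr5:120753098-120777684), Oas1g (23960, chr5:120876142-120887613) and Oas1a (246730, chr5:120896256-120907544) sit on the minus strand. Oasl2 (23962, chr5:114896926-114912245) and Oasl1 (231655, chr5:114923143-114937911) sit on the plus strand. Oas1a and Oas1g are near copies: 40.9% of the 100-base windows of Oas1a coding transcripts (730 of 1786) and 38.2% of those of Oas1g (717 of 1878) occur unchanged in the other gene, so their reads may have been lost or exchanged in counting and their separate values are uncertain. The other 4 members shared 0 such windows with the family. Oas2 overlaps Gm43068 on the opposite strand and Oasl1 overlaps the antisense gene Gm13822 by 38 bases; with the strand setting not given, reads in those stretches could belong to either.

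The interferon-stimulated response element, a motif of promoters that respond to type I interferon, was searched for as GAAA, any 2 bases and GAAA again, on both strands in the 250 bases before each start in a RefSeq promoter table. Of 32851 promoters, 978 held it, or 2.98%. Promoters were in the table for 5 of the 6 members, all but Oas2. Oas1a and Oas1g each held a pair of matches overlapping by 4 bases, the first beginning 20 and 18 bases before the start, and Oas3 held 1 match beginning 75 bases before the start. For Oas1a and Oas3 the start in that table lies inside the gene span given above, by 19 and 25 bases, so that the Oas1a matches lie within that span apart from their first base, while the Oas3 match lies outside it. The letters were not found in the windows of Oasl1 and Oasl2. The promoters with a match are shown from 100 bases before the table's start up to it, 5′ to 3′ on the minus strand in GRCm38.p6, with matches in capitals, because they show how alike the Oas1a and Oas1g promoters are. The paralog Oas1c is shown beside them from −130 to −31 relative to its start; its matches lie on the other strand and so read as the reverse complement.
Oas1a (chr5:120907526-120907625): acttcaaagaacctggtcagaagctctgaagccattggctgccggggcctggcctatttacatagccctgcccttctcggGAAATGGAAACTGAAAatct
Oas1g (chr5:120887614-120887713): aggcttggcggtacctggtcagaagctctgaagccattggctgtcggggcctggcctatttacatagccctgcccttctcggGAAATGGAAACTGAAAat
Oas3 (chr5:120777660-120777759): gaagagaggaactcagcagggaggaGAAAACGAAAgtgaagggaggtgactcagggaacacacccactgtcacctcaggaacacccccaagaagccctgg
Oas1c (chr5:120812545-120812644): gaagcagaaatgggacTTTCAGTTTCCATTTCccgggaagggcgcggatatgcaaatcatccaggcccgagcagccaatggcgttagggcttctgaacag

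The Oas1a and Oas1g stretches share an identical run of 56 bases that contains both matches. Of the 40 other interferon-stimulated genes listed for comparison, 31 had a promoter entry and 13 of these held the motif (41.9%). Counted likewise by gene, 936 of all 27025 genes with a promoter entry held it (3.46%). Such matches describe letters in these windows and are not measured binding sites.

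Levels were compared between genes as deposited FPKM, which divide a count by the gene's length and the library's total. The 6 transcripts were present in every library, and anti-Ly6G monocytes had the highest mean FPKM of the 4 groups for each. With 1 TMM scaling over all 12 libraries this did not hold for Oasl1. On that scale it read 12.90 CPM per kilobase in CTT neutrophils and 12.88 in anti-Ly6G monocytes. Oasl2 had the highest mean level in all 4 groups, from 21.4 ± 4.16 FPKM (SD, n = 3) in control neutrophils to 50.7 ± 19.1 in anti-Ly6G monocytes. Oas1g had the lowest, from 1.57 ± 0.226 FPKM in control neutrophils to 10.04 ± 1.65 in anti-Ly6G monocytes. Cell type, time and selecting antibody differ together between the 2 tables, so differences across them are given as values without a test.

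**Figure D1:**
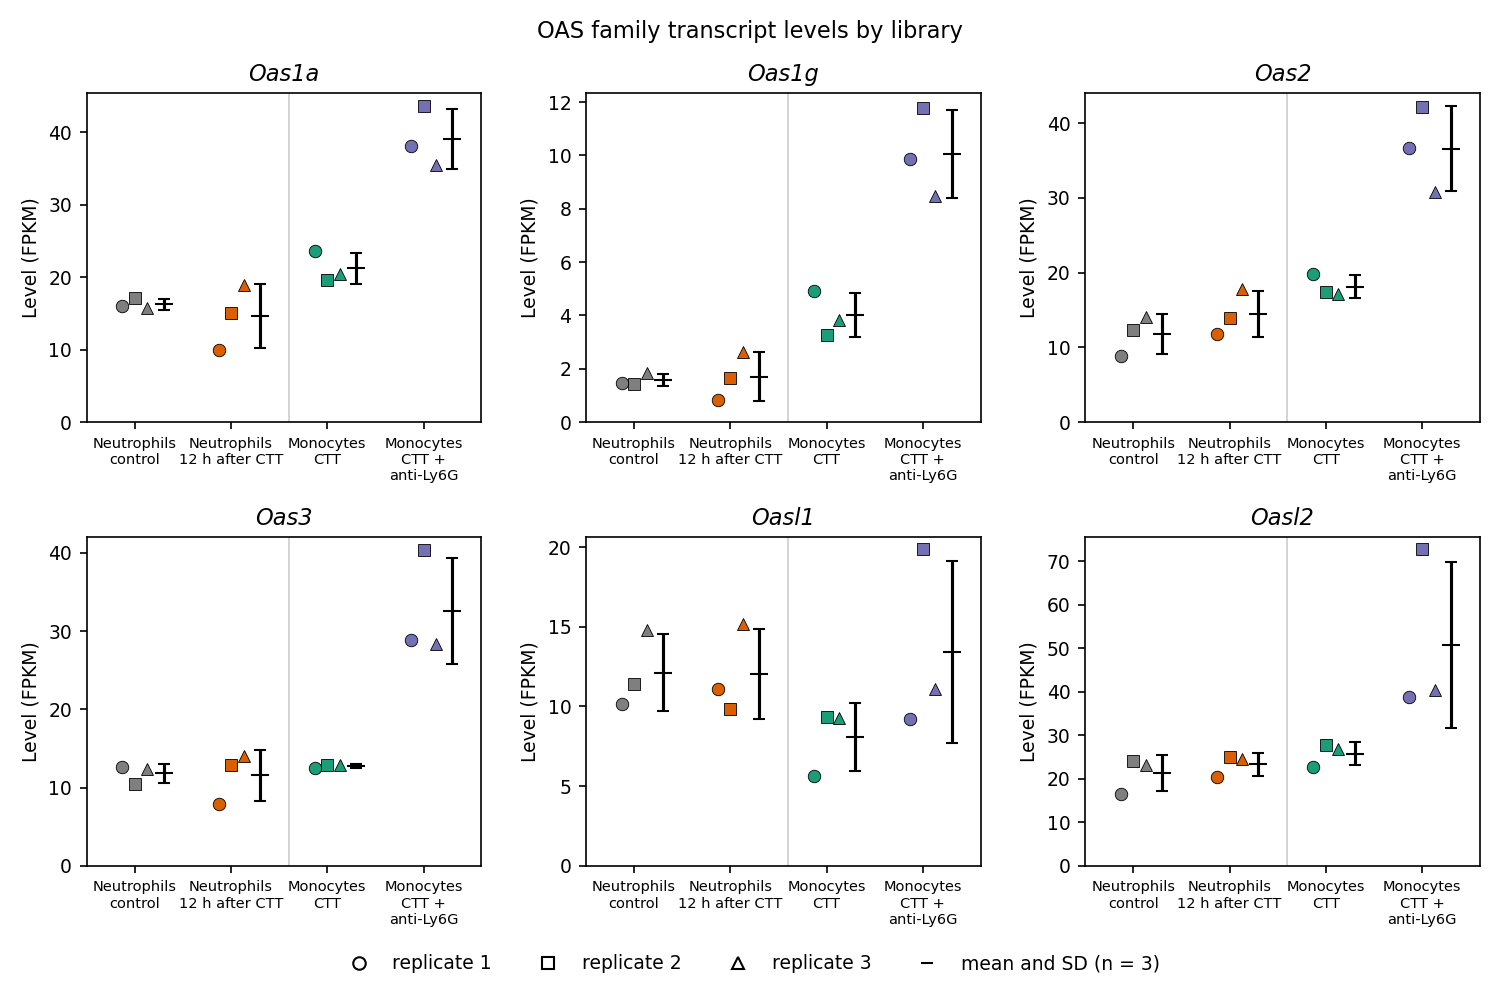
Level of each OAS gene in FPKM (vertical axis, starting at 0) in each of the 12 libraries, by group (horizontal axis); points are libraries, with the replicate number as the symbol, and bars are the mean and SD of 3. Anti-Ly6G monocytes stand above the other 3 groups for Oas1a, Oas1g, Oas2, Oas3 and Oasl2, while for Oasl1 they overlap all 3, and CTT monocytes have its lowest mean.

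Below anti-Ly6G monocytes, the order of the groups depended on the gene. Oas1a read 21.2 ± 2.11 FPKM in CTT monocytes, above 16.3 ± 0.735 in control and 14.7 ± 4.47 in CTT neutrophils with no library overlapping in FPKM. With 1 TMM scaling over all 12 libraries, CTT monocytes and CTT neutrophils did overlap for Oas1a. CTT neutrophil replicate 3 then read 20.9 CPM per kilobase, above CTT monocyte replicates 2 and 3 at 18.6 and 19.4. Oas1g read 4.01 ± 0.837 FPKM in CTT monocytes, also above both neutrophil groups, at 1.57 ± 0.226 and 1.70 ± 0.914. For both Oas1 genes the neutrophil groups overlapped each other. Oas2 (18.1 ± 1.51 FPKM), Oas3 (12.7 ± 0.262) and Oasl2 (25.7 ± 2.64) in CTT monocytes overlapped CTT neutrophils, at 14.5 ± 3.08, 11.6 ± 3.24 and 23.3 ± 2.59. Oasl1 had the opposite order: CTT monocytes were lowest at 8.08 ± 2.12 FPKM, under 12.0 ± 2.81 in CTT neutrophils and 12.1 ± 2.42 in control neutrophils without overlap.

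Summed over the 6 genes, the family read 65.6, 76.9 and 82.1 FPKM in control neutrophils and 61.9, 78.4 and 93.0 in CTT neutrophils. CTT monocytes read 89.2, 90.3 and 90.2 FPKM, the narrowest spread of the 4 groups, and anti-Ly6G monocytes 162, 231 and 155. The makeup of the sum differed between the cell types. Oasl1 made up 16.1% of it in control and 15.6% in CTT neutrophils but 8.98% in CTT and 7.18% in anti-Ly6G monocytes, and Oas1g 2.10%, 2.09%, 4.46% and 5.56% in the same order. Oasl2 kept a share of 27.2% to 30.4% in all 4 groups.

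**Figure D2:**
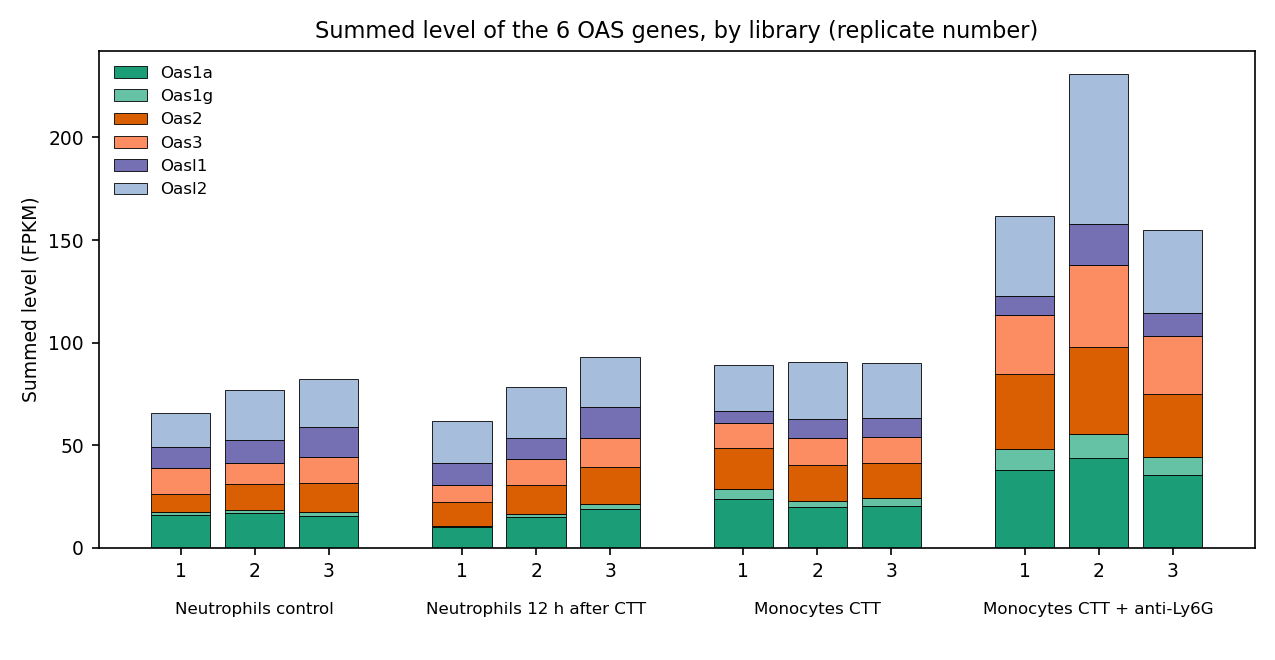
Summed FPKM of the 6 OAS genes in each library (vertical axis, from 0), stacked by gene and grouped by condition, with the replicate number under each bar. The 3 anti-Ly6G monocyte libraries reach 155 to 231 FPKM, and the other 9 libraries lie between 61.9 and 93.0.

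The first comparison asked how monocytes taken after CTT differed when mice had also received anti-Ly6G. The quasi-likelihood test of edgeR, Benjamini-Hochberg adjusted over all 13294 genes tested, called 5 of the 6 OAS genes, all higher with anti-Ly6G, where it called 15.3% of all tested genes, 10.2% as higher and 5.12% as lower. The libraries of the groups did not overlap for 6 of 6 on the TMM-scaled CPM scale, all higher with anti-Ly6G, where 20.6% of all tested genes were higher and 15.4% lower without overlap. The members' median log2 fold change was 1.03, against 0.00 over all tested genes. The genes stood between percentiles 95.3 and 98.6 of the log2 fold changes of all tested genes. All values per library below are in TMM-scaled CPM.

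Oas1a and Oas1g encode short synthetases with enzymatic activity. Oas1a read 46.2, 37.6 and 39.1 CPM in CTT monocytes 1, 2 and 3 and 75.6, 86.0 and 69.4 with anti-Ly6G. The lowest anti-Ly6G library lay well above the highest CTT library. The difference was 0.91 on the log2 scale (SE 0.10, 95% interval 0.68 to 1.14, edgeR adjusted p = 0.000905), or 1.88-fold. Oas1g, the less abundant near copy, read 9.93, 6.47 and 7.56 CPM without and 20.2, 23.9 and 17.1 CPM with anti-Ly6G. It rose 2.55-fold, with a log2 fold change of 1.35 (SE 0.18, 0.94 to 1.76, edgeR adjusted p = 0.00198). With reads possibly exchanged between these near copies, the difference in size between their changes is uncertain.

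Oas2 and Oas3 encode larger synthetases built of repeated OAS units, of which Oas3 is the longest and is known for binding long double-stranded RNA. Oas2 read 81.2, 69.6 and 68.6 CPM in CTT monocytes and 152, 174 and 126 CPM with anti-Ly6G. Its log2 fold change was 1.04 (SE 0.12, 0.77 to 1.31, edgeR adjusted p = 0.000905), or 2.06-fold. Oas3 read 61.4, 62.4 and 62.3 CPM in CTT monocytes, almost level, and 145, 201 and 140 CPM with anti-Ly6G. It had the largest change of the 6, 1.38 (SE 0.13, 1.09 to 1.67, edgeR adjusted p = 0.000381), or 2.61-fold. The Oas1g and Oas3 intervals overlap, so these data do not order the pair.

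Oasl1 and Oasl2 carry ubiquitin-like stretches after the OAS unit. Oasl1 lacks synthetase activity and is known to hold back translation of the interferon regulator Irf7, while mouse Oasl2 is an active synthetase. Oasl2 read 71.2, 84.9 and 82.2 CPM in CTT monocytes and 123, 229 and 127 CPM with anti-Ly6G. It rose by 1.01 (SE 0.22, 0.52 to 1.504, edgeR adjusted p = 0.0167), or 2.01-fold, and anti-Ly6G replicate 2 stood far above the other 2 libraries of its group. Without that library the log2 fold change of Oasl2 was 0.66 (edgeR adjusted p = 0.00606), and without CTT replicate 3 it was 1.03 and did not pass (edgeR adjusted p = 0.0608). Oasl1 read 12.8, 20.8 and 20.6 CPM in CTT monocytes and 21.3, 45.6 and 25.3 CPM with anti-Ly6G. These do not overlap by a narrow margin, and on the FPKM scale, which takes the total counts of each library, they do: 5.63, 9.36 and 9.26 against 9.23, 19.9 and 11.1 FPKM. Oasl1 did not pass, at 0.76 on the log2 scale (SE 0.29, 0.12 to 1.41, edgeR adjusted p = 0.106, unadjusted 0.0259). Without anti-Ly6G replicate 2 it was 0.36 (edgeR adjusted p = 0.321).

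**Figure D3:**
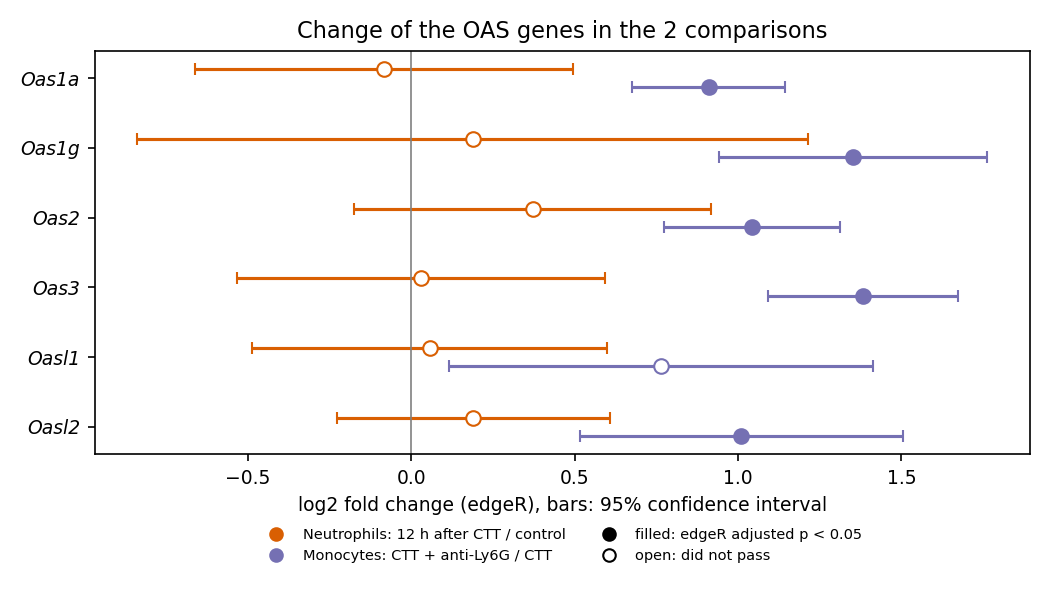
Log2 fold change of each OAS gene (horizontal axis) in the neutrophil and the monocyte comparison, with the 95% confidence interval from edgeR as bars; filled points had an adjusted p under 0.05. In monocytes the values run from 0.76 (Oasl1, which did not pass) to 1.38 (Oas3), and in neutrophils from −0.08 to 0.37 with every interval crossing 0.

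Replicate 2 had the highest value of the anti-Ly6G monocytes for 6 of 6 OAS genes, and replicate 3 the lowest for 4. The gap was widest for Oasl1, whose highest anti-Ly6G library held 2.14 times the level of the lowest, and smallest for Oas1a at 1.24 times. With each of the 6 monocyte libraries left out in turn, Oas1a, Oas1g, Oas2 and Oas3 rose every time, and 4 or 5 of the 6 members passed.

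**Figure D4:**
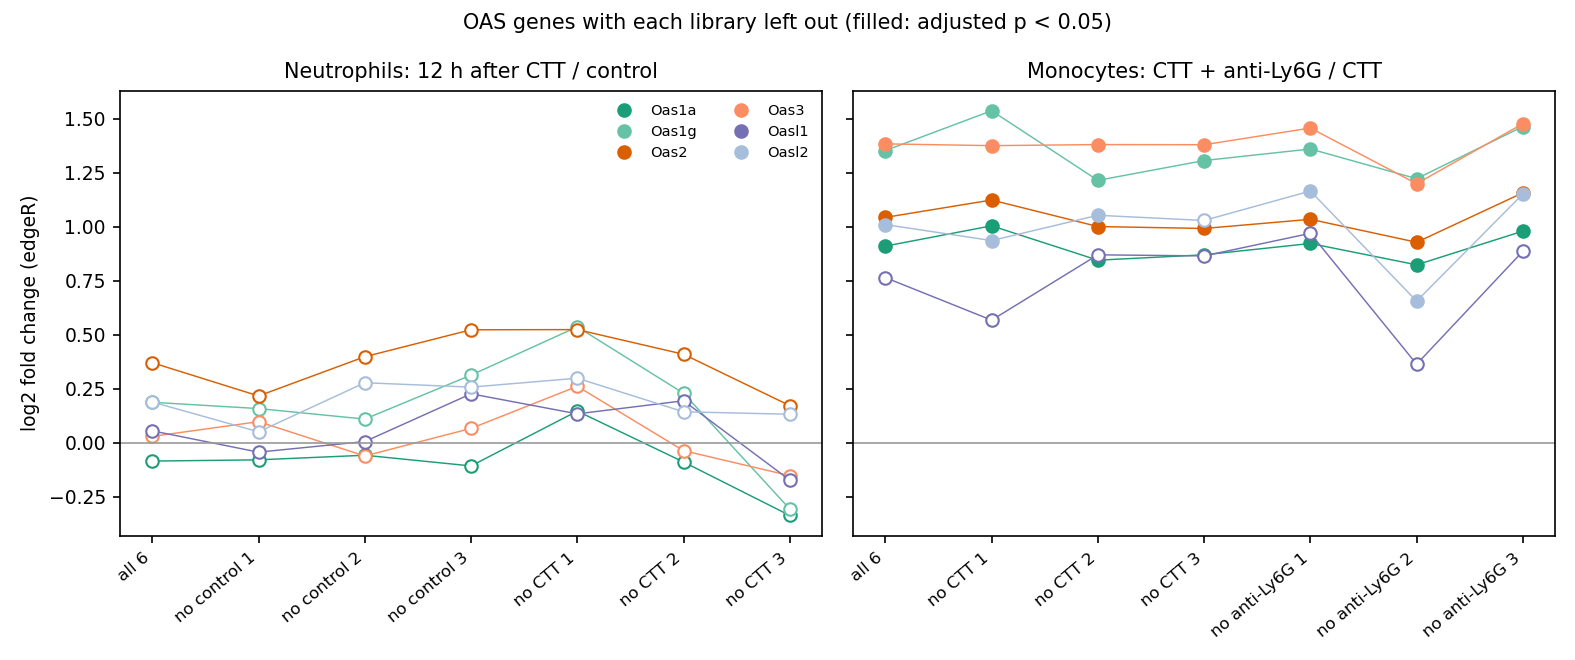
Log2 fold change (vertical axis) of each OAS gene with all 6 libraries of a comparison and with each library left out in turn (horizontal axis); filled points had an edgeR adjusted p under 0.05 and lines join the values of a gene. In monocytes all values stay above 0 and Oasl1 and Oasl2 drop to 0.36 and 0.66 without anti-Ly6G replicate 2, while in neutrophils the values of 4 genes cross 0.

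Ratios within a library ask whether members moved in proportion. In monocytes the Oas1g to Oas1a ratio of FPKM ranged from 0.167 to 0.208 with CTT alone and from 0.239 to 0.269 with anti-Ly6G. The Oas3 to Oas2 ratio ranged from 0.627 to 0.752 and from 0.787 to 0.957. Both ratios were higher in every anti-Ly6G library, with p = 0.1 in a two-sided exact permutation test, the smallest p that 3 libraries against 3 allow, and 0.3 adjusted over the 6 ratio tests made. The Oasl1 to Oasl2 ratio overlapped, at 0.248 to 0.346 against 0.238 to 0.275 (exact permutation p = 0.3, adjusted 0.45). The same 3 ratios in neutrophils overlapped between control and CTT (exact permutation p = 0.7, 0.3 and 0.6, adjusted 0.7, 0.45 and 0.7).

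Markers of other cells moved in the same comparison. The 13 neutrophil markers summed to 4755 to 6636 CPM in CTT monocytes and to 13009 to 17639 CPM with anti-Ly6G, and 11 of 13 rose. The 9 red pulp macrophage markers summed to 7839 to 13312 CPM and to 6121 to 6819 CPM, and 6 of 9 fell. Of the 9 monocyte markers 5 rose and 2 fell, with sums of 3802 to 5794 and 4671 to 5366 CPM. The 8 plasmacytoid dendritic cell markers, of which 0 passed, summed to 1046 to 1082 and 939 to 984 CPM. B cell markers summed to 3595 to 5236 and 2746 to 3800 CPM (0 rose, 2 fell), and erythroid markers to 1301 to 2000 and 779 to 1271 CPM (0 rose, 1 fell). NK cell markers, at 21.3 to 22.0 and 22.1 to 27.1 CPM (1 rose), did not overlap, T cell markers, at 105 to 124 and 93.4 to 109 CPM (2 rose, 1 fell), did, and of the 7 conventional dendritic cell markers 0 passed in edgeR. Bst2 and Irf8 of the dendritic cell list are also on the interferon lists used below. Anti-Ly6G replicate 2, the highest of its group for all 6 OAS genes, had 16331 CPM of neutrophil markers, under the 17639 CPM of replicate 1. The neutrophil libraries had a summed OAS level of 61.9 to 93.0 FPKM and neutrophil marker sums of 3972 to 12108 CPM. Both lay below every anti-Ly6G monocyte library, though the CPM of the 2 cell types were scaled separately. The part of these cell type differences in the rise of the OAS genes was not tested.

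The second comparison asked how neutrophils differed 12 h after CTT from those of untreated tumor-bearing mice. In the edgeR test, 0 of 6 OAS genes passed in either direction, 0 had an unadjusted p under 0.05, and 0 passed with DESeq2 or limma-voom; of all 13058 genes tested, 0.567% rose and 0% fell. The control and CTT libraries overlapped for 6 of 6, where 13.6% of all genes were higher and 11% lower without overlap. The members' median log2 fold change was 0.12, against −0.02 over all genes tested. Libraries varied more here than in monocytes, with a common biological coefficient of variation of 0.275 against 0.114, so that changes of the size seen in monocytes were harder to detect.

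In control neutrophils 1, 2 and 3 Oas1a stood at 30.995, 32.2 and 29.9 CPM, and in CTT neutrophils at 19.4, 29.7 and 38.7. The control libraries were nearly level and the CTT libraries fell on both sides of them, so that the log2 fold change of −0.08 (SE 0.25, 95% interval −0.66 to 0.49, edgeR adjusted p = 0.882) averaged over unlike libraries. Oas1g stood at 2.94, 2.75 and 3.59 CPM in the controls and at 1.64, 3.36 and 5.59 after CTT. Its CTT libraries spread 3.41-fold, the widest of any member and group, and its interval, −0.84 to 1.22 around 0.19 (SE 0.44, edgeR adjusted p = 0.847), was the widest of the 6.

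Oas2 stood at 35.9, 48.7 and 56.1 CPM in the controls and at 47.7, 57.9 and 76.5 after CTT. Its log2 fold change of 0.37 was the largest of the 6 (SE 0.23, −0.18 to 0.92, edgeR adjusted p = 0.456), with 2 of the 3 CTT libraries above every control. For Oas3 the controls held 61.8, 49.7 and 59.7 CPM and the CTT libraries 38.6, 64.0 and 72.3. The log2 difference was 0.03 (SE 0.24, −0.53 to 0.59, edgeR adjusted p = 0.958), with the CTT libraries again on both sides of the controls.

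For Oasl1 the controls held 22.8, 25.0 and 32.8 CPM and the CTT libraries 25.1, 22.5 and 36.2. The log2 difference was 0.06 (SE 0.23, −0.49 to 0.60, edgeR adjusted p = 0.920). Oasl2, the member of highest FPKM, stood at 51.6, 73.1 and 71.0 CPM in the controls and at 63.2, 79.5 and 80.4 after CTT. Its interval, −0.23 to 0.61 around 0.19 (SE 0.18, edgeR adjusted p = 0.610), was the narrowest of the 6. With library totals in place of TMM, the small differences of Oas3 and Oasl1 turned to −0.0334 and −0.00879.

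The 3 CTT neutrophil libraries differed among themselves in a shared pattern. In TMM-scaled CPM, replicate 3 was highest for 6 of 6 OAS genes and replicate 1 lowest for 5. On the FPKM scale Oasl2 was higher in replicate 2 than in replicate 3, at 25.1 against 24.5 FPKM. Marker sums also differed between the groups: neutrophil markers were 3972 to 5855 CPM in the controls and 7437, 7752 and 12108 CPM in CTT replicates 1, 2 and 3 (2 of 13 rose), and monocyte markers 2309 to 2913 CPM and 3410, 3902 and 5777 CPM. Both sums were higher in every CTT library and highest in replicate 3. Replicate 3 also held 241 counts of Ifnb1, which encodes interferon beta, against 44 and 5 in replicates 1 and 2 and 52, 53 and 86 in the controls. Whether these values bear on the OAS levels was not tested. Leaving out control replicate 1, the library rich in erythroid markers, also left 0 of 6 members past the threshold. Whether the OAS changes differ between the neutrophil and the monocyte comparison was not tested, since cell type, time, and treatment all differ.

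The rest of the pathway was read from 8 gene lists in the same fits. In monocytes with anti-Ly6G, 25 of the 78 genes tested in these lists rose and 1 fell, where 10.2% of all tested genes rose and 5.12% fell. The lists were chosen with earlier results of these data known, so these counts are a description and not independent support. The paralog Oas1c, whose promoter holds the same motif, did not pass: it read 11.6 ± 1.74 CPM (SD, n = 3) without and 10.8 ± 1.32 CPM with anti-Ly6G (log2 fold change −0.10, SE 0.15, 95% interval −0.44 to 0.24, edgeR adjusted p = 0.699). Its interval lies below those of the 5 members that passed. In neutrophils Oas1c stood at 13.1 ± 2.97 CPM in the controls and at 13.8 ± 0.464 after CTT (0.07, SE 0.20, edgeR adjusted p = 0.875). Oas1e in both cell types, and Oas1d and Oas1f in monocytes, had too few counts to be tested. Oas1d and Oas1f had no entry for neutrophils, and Oas1b and Oas1h are not analysed here.

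Of 3 genes tested that are linked to the turnover of 2-5A and its action, 0 passed in either comparison in edgeR. Akap7 and Pde12, which encode enzymes that break down 2-5A, had values of −0.33 (edgeR adjusted p = 0.102) and 0.11 (0.440) in monocytes, and Abce1, a ribosome recycling factor, −0.04 (0.736).

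Among 11 tested genes of RNA sensing, a list that also held Tlr7 and Adar, 3 rose and 1 fell in monocytes, with a median of 0.15. Zbp1, a sensor of Z-form nucleic acid, rose from 41.0, 51.4 and 44.97 CPM to 74.0, 86.5 and 77.5 CPM (0.79, SE 0.10, edgeR adjusted p = 0.00117). Dhx58, which encodes the RIG-I-like receptor LGP2, rose by 0.38 (edgeR adjusted p = 0.0174), and Trim25, a ubiquitin ligase acting on RIG-I, by 0.26 (0.0218). Tlr3, the endosomal receptor of double-stranded RNA, fell by 0.35 (edgeR adjusted p = 0.0450). In the DNA-sensing cGAS-STING list 4 of 5 rose: the sensor gene Cgas (0.63, edgeR adjusted p = 0.0296), the kinase gene Ikbke (0.60, 0.00158), the nuclease gene Trex1 (0.41, 0.0106) and the adaptor gene Sting1 (0.38, 0.0137). In neutrophils 0 of 11 and 0 of 5 passed in edgeR.

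Interferon transcripts were scarce. Ifnb1 had 7, 2 and 10 counts in CTT monocytes and 11, 2 and 0 with anti-Ly6G, too few to be tested, and Ifng, the only interferon tested there, did not pass, at −0.59 on the log2 scale (SE 0.50, edgeR adjusted p = 0.467). Of the 12 genes of interferon receptors and signaling, 3 rose in monocytes: Usp18, a feedback inhibitor of the type I receptor (0.73, SE 0.12, edgeR adjusted p = 0.00535), the receptor subunit gene Ifngr2 (0.38, 0.00439) and Irf9 (0.22, 0.0337). Stat2 (0.06, edgeR adjusted p = 0.551), Ifnar1 (0.11, 0.254) and Ifnar2 (0.00, 0.995) did not pass. Of 8 interferon regulatory factors 1 rose, Irf7, the main amplifier of type I interferon, from 132 ± 20.2 to 188 ± 27.5 CPM (SD, n = 3; 0.51, SE 0.13, edgeR adjusted p = 0.0311); a count of 1 in 8 is near the 10.2% of all tested genes that rose.

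Among 37 other interferon-stimulated genes tested in monocytes, 14 rose and 0 fell, with a median of 0.33 beside 1.03 for the 6 OAS genes. The Schlafen gene Slfn4 (1.74, SE 0.18, edgeR adjusted p = 0.000636) rose most, and the Schlafen gene Slfn1 rose by 1.25 (SE 0.17, edgeR adjusted p = 0.00222). Slfn4 read 213, 248 and 220 CPM with CTT alone and 664, 1017 and 590 CPM with anti-Ly6G, with replicate 2 highest as for the OAS genes. Ifit1, which binds viral RNA, rose by 1.25 (SE 0.32, edgeR adjusted p = 0.0342) and the nucleotide kinase gene Cmpk2 by 0.75 (SE 0.11, 0.00323). Isg15, Ifit2, Ifi35, Ifi27l2a, Rtp4, Xaf1, Parp9, Trim30a, Ifi204 and Ifi209 also rose, by 0.24 to 0.79. Widely used interferon-stimulated genes did not pass: Rsad2, the antiviral enzyme viperin (0.39, SE 0.22, edgeR adjusted p = 0.270), Ifit3 (0.44, SE 0.18, 0.141) and Cxcl10, a chemokine (0.42, SE 0.13, 0.0583), these 3 being chosen after their values were seen.

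**Figure D5:**
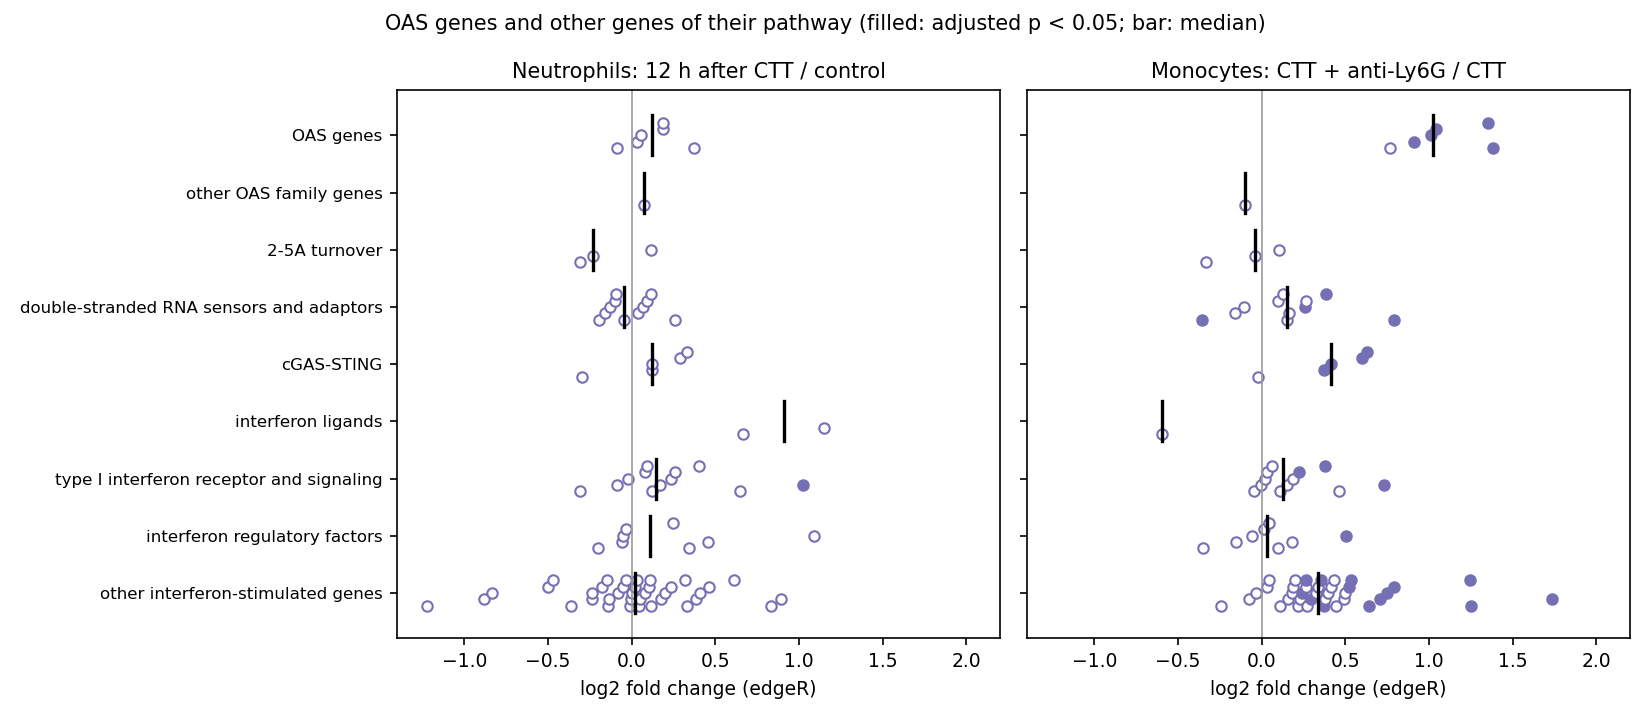
Log2 fold change (horizontal axis) of the OAS genes and of the tested genes of 8 pathway lists in each comparison; each point is a gene, filled where the edgeR adjusted p was under 0.05, and the bar is the median of the list. In monocytes the OAS genes have a median of 1.03 and the other interferon-stimulated genes 0.33, and in neutrophils Socs3 is the only gene that passed.

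In neutrophils after CTT, 1 gene of the 8 lists passed. Socs3, a feedback inhibitor of cytokine receptors, rose from 113, 141 and 134 CPM in the controls to 287, 234 and 266 (1.02, SE 0.14, edgeR adjusted p = 0.0361). The call was lost, with 0 genes of the whole table past the threshold, when control replicate 2 or 3 or CTT replicate 1, 2 or 3 was left out. The 37 other interferon-stimulated genes had a median of 0.02, and 0 passed in edgeR. Those with the smallest p went in opposite directions: Cmpk2 had a value of −0.88 (edgeR adjusted p = 0.226) and Slfn4 of 0.83 (0.243), both without overlap between groups. Ifng stood at 1.57, 3.66 and 3.54 CPM in the controls and at 4.17, 7.16 and 8.13 after CTT (1.15, SE 0.40, edgeR adjusted p = 0.325).

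Genes were last ranked by how closely their log2 CPM followed the mean of the 6 standardized OAS genes over the 6 libraries of a cell type, as a description without a test, since the libraries share depth, group and cell makeup. Among 9329 genes ranked in monocytes, the highest Pearson r was that of Usp18 (0.999), followed by Rassf3 (0.998), Lilr4b (0.997), Slfn1 (0.997) and the complement receptor gene C5ar1 (0.996). Usp18 read 18.7, 18.3 and 18.5 CPM with CTT alone and 27.7, 36.9 and 27.5 CPM with anti-Ly6G, the same flat CTT group and high replicate 2 as Oas3. Among 9045 genes ranked in neutrophils, Insig1 (0.987), Tmem230 (0.987), Ccdc88b (0.985), Dab2ip (0.981) and Akirin1 (0.979) led, and none of these 5 is on the interferon lists. Usp18 in neutrophils read 15.9, 15.1 and 16.5 CPM in the controls and 10.9, 14.3 and 13.3 after CTT, a log2 difference of −0.31 (edgeR adjusted p = 0.403).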

How the data were processed

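RNA-seq was analysed in 12 libraries of 4 groups of 3, taken with their replicate numbers from the sample titles. For each cell type the authors deposited 1 table of raw counts and 1 of FPKM. The submitters' processing notes name HISAT2, HTSeq and the build mm10; versions, annotation and strand setting: not given in the sources used here. The deposited FPKM are the counts over gene length and library total. The deposited counts were tested per table with edgeR 4.0.16 (R 4.3.3): filterByExpr, TMM scaling, two-sided quasi-likelihood F test, Benjamini-Hochberg adjustment over all tested genes, threshold 0.05. The SE is the absolute log2 fold change divided by the square root of F. FPKM served for levels between genes and groups. Nothing was left out (0 columns). With 30942849 counts or more in each library, how far libraries of a group vary sets the precision, apart from genes of few counts. The titles call the libraries biological replicates without naming mice, and p-values refer to the spread between them.

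Coordinates and promoters came from RefSeq (GRCm38.p6) and overlaps and shared windows from GENCODE transcripts. Named genes are the 6 members, up to 4 genes of smallest p per list and comparison, and 5 genes per cell type most like the members; others named were chosen after their values were seen. The members and lists were chosen with earlier results of these data known, and some listed genes are not reported here. The steps were checked on simulated data. Alternatives were other scalings and filters, DESeq2 1.42.0, limma 3.58.1 (voom, and log2 FPKM plus 1 or 0.1), a replicate block and leaving out each library.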

Additional observations from a re-analysis of the deposited data

How the results depend on the processing

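In monocytes, 5 OAS genes passed with all libraries, 4 to 5 with each library left out, and 5 under every other alternative except the replicate block, where Oasl1 also passed (0.72, edgeR adjusted p = 0.0178) and 6 did. In neutrophils 0 passed under every alternative. Same-numbered libraries did not deviate together throughout (correlations 0.199, 0.00548 and 0.189 in neutrophils, 0.0651, −0.0267 and 0.0868 in monocytes). Libraries of different number had −0.220 to 0.156 in neutrophils and −0.104 to 0.0347 in monocytes. Not every library correlated best with its own number, though the highest value in each table was of a same-numbered pair. These values do not settle whether the numbers are pairs, and the main fit did not take them as pairs. Over whole tables, 74 genes passed in neutrophils, 562 with DESeq2, 45 on log2(FPKM + 1), 5 with the replicate block and 0 to 288 with each library left out (288 without control replicate 1, 0 without any other). In monocytes 2035 passed, and 938 to 2855 with each library left out.

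The small neutrophil log2 fold changes turned sign as follows, and the cause was not tested. With libraries left out, Oas1a ran from −0.34 to 0.15, Oas1g from −0.31 to 0.54, Oas3 from −0.15 to 0.26 and Oasl1 from −0.17 to 0.23. Oas1g was −0.0194 on log2(FPKM + 0.1). Oas3 was −0.0334 with library totals, −0.0156 with voom, −0.0624 and −0.0703 on log2 FPKM plus 1 and 0.1, and −0.0100 with the replicate block. Oasl1 was −0.00879 with library totals, −0.0136 on log2(FPKM + 1) and −0.0151 on log2(FPKM + 0.1). With 1 TMM scaling over all 12 libraries the summed level in CTT monocytes was 85.7 CPM per kilobase against 89.9 FPKM. CTT neutrophil replicate 3 then summed to 103 CPM per kilobase against 93.0 FPKM. Mean Oas3 was 12.4 CPM per kilobase in CTT neutrophils and 12.2 in CTT monocytes, against 11.6 and 12.7 FPKM. The order of groups for Oasl1 and the overlap for Oas1a also changed on that scale, as given with the levels. The interferon genes had too few counts for a test in most cases, and the near identity of Oas1a and Oas1g limits their separate values.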
